A study of Oryctolagus cuniculus with 2 samples.

Results

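The genes described here encode the proteasome, the particle that degrades proteins tagged with ubiquitin, and its inducible form, the immunoproteasome. They are the genes whose symbol in the platform annotation begins with PSMA, PSMB, PSMC, PSMD, PSME, PSMF or PSMG, and there were 48 of them among 15605 genes named on the array. Each was read by 1 probe set, a set of short probes for one transcript. Of these 48 genes, 45 reached a log2 signal of 5 in at least 1 array, the limit under which the study's methods omitted a gene, as did 12724 of the 15605. PSMB8, PSMA8 and PSMD10 lay under it in both arrays. PSMA7 and PSMG1, which the RefSeq rabbit gene table also lists, were not analysed here because no probe set carried either symbol.

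Retinas of Dutch rabbits at day 7 after induction were compared between retinal vein occlusion (RVO) and non-RVO control. RVO was made in the right eye by closing the retinal veins with an argon green laser. The contralateral left eye was the control. Retinal RNA of each condition was hybridized to 1 array. Before sampling, the laser-irradiated region was cut out with a trepan, so the RVO sample is the retina around it. The age of the rabbits, and whether both arrays came from the same rabbit or from several, are not given in the sources used here.

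A proteasome is built around the 20S core, a barrel of stacked rings. The outer rings hold alpha subunits and act as a gate, and the inner rings hold beta subunits, of which PSMB5, PSMB6 and PSMB7 carry the cutting sites. The 19S particle caps the barrel, binds ubiquitin chains, removes them, and unfolds the substrate with a ring of ATPases. Interferon-gamma induces replacement cutting subunits, PSMB8 for PSMB5, PSMB9 for PSMB6 and PSMB10 for PSMB7, as well as the PA28 activator made of PSME1 and PSME2. Leukocytes carry these subunits without induction. The immunoproteasome is known for making peptides that MHC class I molecules show to T cells.

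Values are log2 signals, and differences are RVO minus control on the log2 scale, where 1 is 2-fold. There was 1 array per condition, so there is no replicate error, no test was possible, and counts rest on size alone. Signals of different probe sets depend on their probes, so each gene is read against itself and not against another. A rough scale for disagreement comes from 118 genes with several probe sets, in which differences between probe sets of the same gene had a pooled SD of 0.19. That value covers neither the animals nor errors shared by a whole array.

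The retina of both arrays carried photoreceptor transcripts, with log2 signals of 12.95 and 12.80 for SAG, the rod arrestin, and of 12.96 and 12.92 for recoverin (RCVRN), in control and RVO retina. These 2 genes had the smallest differences of the 13 retinal neuron markers measured. Most markers listed for skeletal muscle and for fibroblasts were higher in the RVO array. All 7 skeletal muscle markers read here, of 10 listed, were higher by over 2-fold, beside 3.50% of all genes. Their summed linear signal was 444 in control and 3887 in RVO retina. Of 8 fibroblast markers 7 were higher by over 2-fold, and PDGFRA was lower, with 6.26 in control and 5.86 in RVO retina. The sum over the 8 was 1020 in control and 6437 in RVO retina. LUM, one of the 8, had 8.85 in control and 11.34 in RVO retina. The study counted DCN and LUM among genes upregulated in RVO retinas. The part of muscle or fibroblasts in the differences given next was not tested. In a whole tissue, fewer cells of a type and less RNA per cell cannot be told apart.

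No proteasome gene differed by 2-fold. None of the 45 was over 2-fold higher in RVO retina, beside 3.50% of all genes, and none was lower by over 2-fold, beside 0.479%. None passed 1.5-fold either, beside 7.25% of all genes higher and 3.03% lower by that much, although PSMB9 passed it when quantile normalization was repeated, at 0.61, or the trend with signal was removed, at 0.66. The differences ran from -0.35 for PSMC3IP to 0.57 for PSMB9, with a median of 0.08, and 34 of the 45 genes, or 75.6%, lay above 0 and 11 below it. Over all genes the median was -0.04, with 42.8% above 0 and 56.0% below it.

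By the scale of the probe set SD, 16 proteasome genes, or 35.6%, were higher by more than 0.19, beside 21.6% of all genes. By the same scale 4 proteasome genes, or 8.89%, were lower, beside 27.1% of all genes. The quartiles of the proteasome genes were 0.02 and 0.24, and those of all genes -0.20 and 0.15. The plot of differences by role shows each gene against that range.

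**Figure D1:**
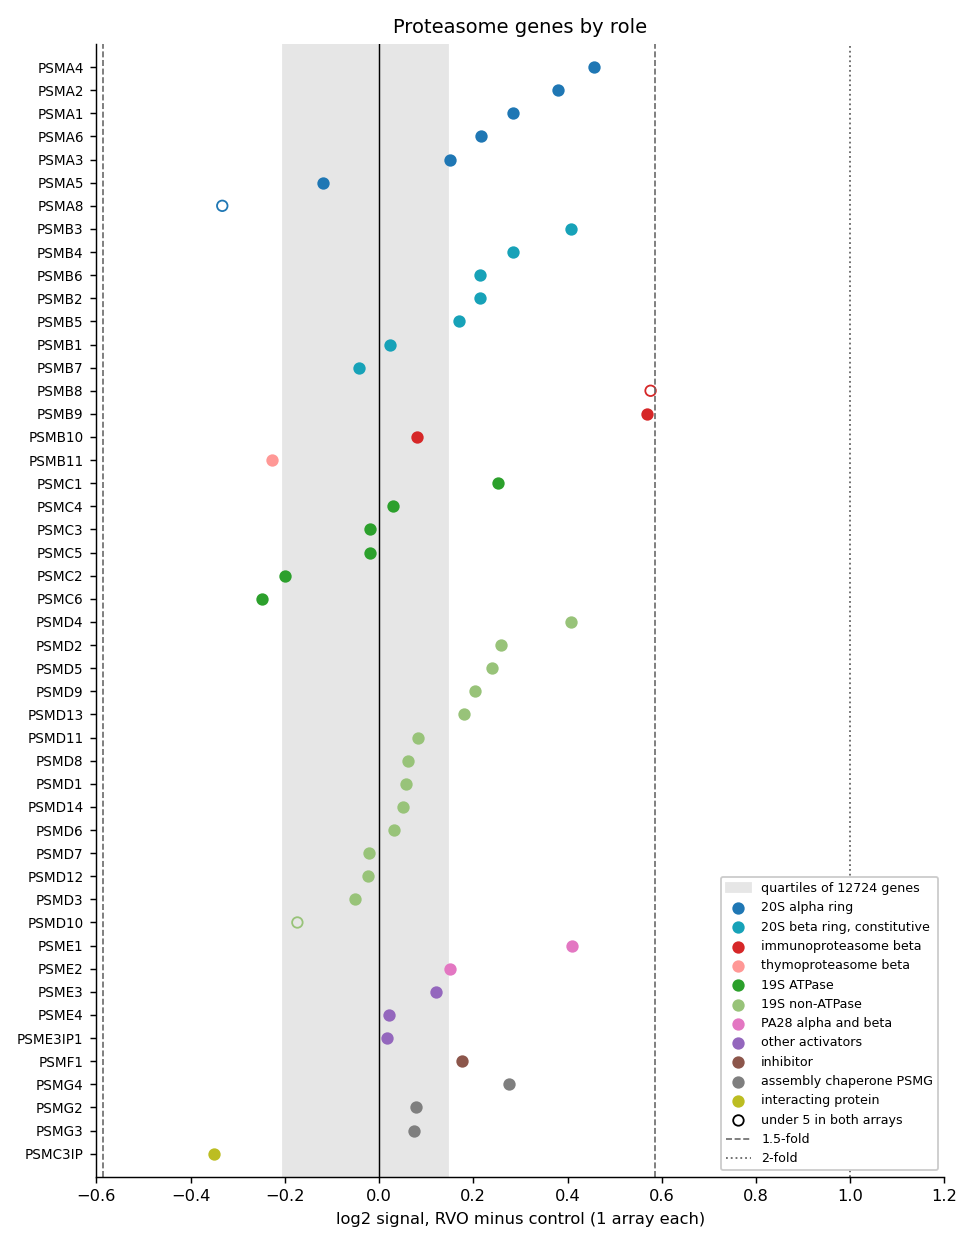
Difference in log2 signal (RVO minus control, 1 array each) of each of the 48 proteasome genes, ordered by role and then by size. The grey band spans the quartiles of all 12724 genes, from -0.20 to 0.15, open circles are the 3 genes under 5 in both arrays, and dashed and dotted lines mark 1.5-fold and 2-fold. No gene passes 1.5-fold in the deposited values, and PSMB8 and PSMB9 lie nearest to it.

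The interferon-inducible genes were unequal. Among the proteasome genes, PSMB8, PSMB9 and PSME1 had some of the highest differences, and PSMB10 and PSME2 lay near the middle. PSMB9, which replaces the caspase-like subunit PSMB6, had a log2 signal of 5.38 in control retina and 5.95 in RVO retina, a difference of 0.57 or 1.48-fold. It was the highest of the 45 genes and ranked 965 of all 12724. PSMB8, which replaces the chymotrypsin-like subunit PSMB5, had 4.38 and 4.95, a difference of 0.58 or 1.49-fold. Both of its values are under 5, so that difference rests on a low signal. PSMB10, which replaces the trypsin-like subunit PSMB7, had 6.12 and 6.20. Its difference of 0.08 lay between the quartiles of all genes.

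The PA28 genes were likewise unequal. PSME1, the alpha subunit, had 7.34 in control retina and 7.75 in RVO retina, a difference of 0.41 or 1.33-fold. PSME2, the beta subunit of the same ring, had 8.20 and 8.36, a difference of 0.15. The related activator gene PSME3, which encodes the PA28 gamma ring of the nucleus, had 8.59 and 8.72, a difference of 0.12. The difference of PSME1 thus exceeded that of PSME3 by 0.29, and that of PSME2 exceeded it by 0.03.

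The cutting subunits that PSMB8, PSMB9 and PSMB10 replace are the closest comparison. PSMB5 had 10.87 and 11.04, a difference of 0.17, which PSMB8 exceeded by 0.41. PSMB6 had 9.92 and 10.13, a difference of 0.21, which PSMB9 exceeded by 0.35. PSMB7 had 8.92 and 8.88, a difference of -0.04, which PSMB10 exceeded by 0.12. In all 3 exchanges the inducible subunit had the higher difference, by sizes that no replicate bounds. Both values of PSMB8 lie under the signal limit, and the gap of 0.12 for PSMB10 is under the probe set SD of 0.19.

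**Figure D2:**
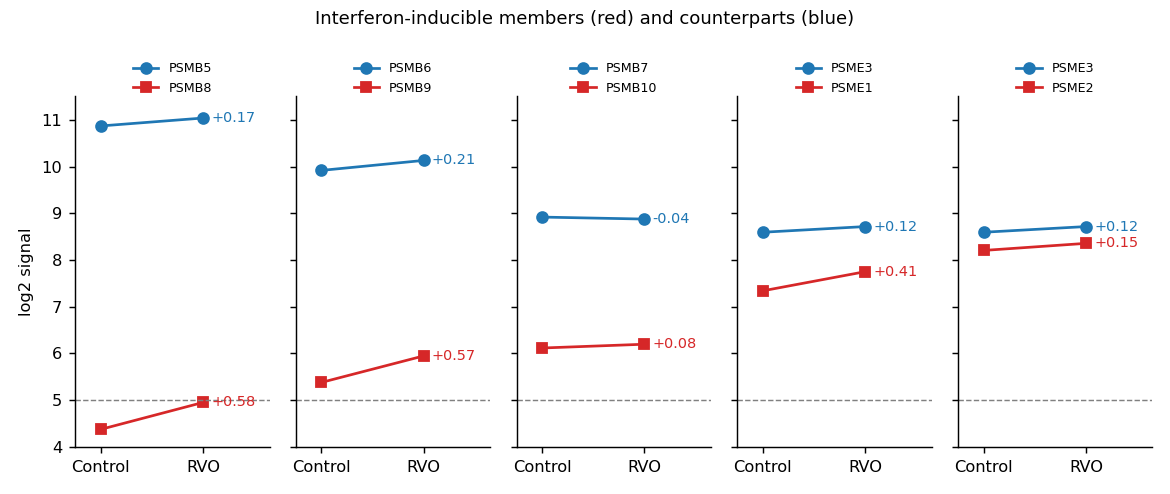
Log2 signals of the 5 interferon-inducible genes (red squares) and of their constitutive counterparts (blue circles) in the control and RVO arrays, with the difference beside each line and the signal limit of 5 dashed. PSMB8 and PSMB9 slope upwards by 0.58 and 0.57 and PSME1 by 0.41, while PSMB10 and PSME2 differ by 0.08 and 0.15. Heights of different genes are not comparable.

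The 5 inducible genes were set against the constitutive genes, which are the 32 past the signal limit among the alpha subunits, the constitutive beta subunits and the 19S series. The 19S series includes PSMD5 and PSMD9, which are assembly chaperones rather than subunits. The median of the inducible genes was 0.28 over the 4 past the limit and 0.41 with PSMB8 included. The median of the 32 constitutive genes was 0.12, so the inducible median was higher by 0.16, or by 0.29 with PSMB8. That gap depended on the signal limit. It was 0.07 with a limit of 6, which removes PSMB9 and leaves an inducible median of 0.15 over 3 genes, and 0.34 with no limit, which adds PSMB8 to the inducible genes and PSMA8 and PSMD10 to the constitutive ones. Without the chaperones PSMD5 and PSMD9 the gap was 0.21. The groups overlapped. The differences of PSMB9 and PSMB8 were exceeded by no constitutive gene and that of PSME1 by 1, PSMA4, whereas 15 exceeded PSME2 and 17 exceeded PSMB10, or 13 and 15 without the chaperones.

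Among the constitutive genes the median of the 20S core was above that of the 19S particle. In the core 11 of 13 genes lay above 0, with a median of 0.21. In the 19S series 12 of 19 lay above 0, with a median of 0.05. Of all genes 42.8% lay above 0. The gap between the medians was 0.16 and was not tested. The 6 alpha subunits past the limit had a median of 0.25. PSMA4 led them with 8.78 and 9.23, a difference of 0.46 that was the highest of all constitutive genes. PSMA2 followed at 0.38, from the low signals of 5.03 and 5.41. PSMA1 and PSMA6 differed by 0.28 and 0.22 and PSMA3 by 0.15. PSMA5 was the only one of the 6 below 0, with 8.43 and 8.31, a difference of -0.12.

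The 7 constitutive beta subunits had a median of 0.21. PSMB3, a structural subunit of the inner ring with no cutting site, had 9.01 in control retina and 9.42 in RVO retina, a difference of 0.41 and the highest of the 7. PSMB4 and PSMB2, also without a cutting site, differed by 0.28 and 0.21, and PSMB1 by 0.02. PSMB7 was the lowest and the only one below 0. Of the cutting subunits, PSMB5 and PSMB6 lay within the range of the structural ones, and PSMB7 lay just under it.

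The ATPase ring of the 19S particle, which unfolds substrates and threads them into the core, lay around 0. Its 6 genes had a median of -0.02, which turned to 0.0038 when the trend with signal was removed, and 2 of them lay above 0. PSMC1 was the highest, with 8.82 and 9.07, a difference of 0.25. PSMC6 was the lowest, with 9.998 and 9.75, a difference of -0.25, and PSMC2 differed by -0.20. PSMC4 differed by 0.03, and PSMC3 and PSMC5 each by -0.02, though both of these turned to just above 0 with the trend with signal removed. Subunits of the same ring thus spread from -0.25 to 0.25.

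Of the 14 non-ATPase genes of the 19S series, 13 passed the limit and 10 lay above 0, with a median of 0.06. PSMD4, which encodes a receptor for ubiquitin chains, led with 8.82 in control retina and 9.22 in RVO retina, a difference of 0.41 or 1.33-fold. PSMD2, a large scaffold subunit that docks ubiquitin-binding shuttle proteins, differed by 0.26. PSMD5 and PSMD9, which are chaperones that help to assemble the base of the particle and are not kept in it, differed by 0.24 and 0.20. PSMD14, the metalloprotease that cuts ubiquitin from the substrate, had 7.95 and 8.002, a difference of 0.05. The lid subunits PSMD3, PSMD7 and PSMD12 were below 0, at -0.05, -0.02 and -0.02, and PSMD3 was the lowest of the 13. PSMD7 turned to just above 0 with the trend with signal removed. PSMD10, which encodes the assembly chaperone gankyrin, lay under the limit at 3.20 and 3.03.

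The remaining regulators and chaperones had differences from 0.02 to 0.27. PSME4, which encodes the large activator PA200, had 8.91 and 8.93, a difference of 0.02, and PSME3IP1, whose product binds PSME3, differed by 0.02 as well. PSMF1, first described as an inhibitor of the core, had 8.88 and 9.05, a difference of 0.18. The assembly chaperone PSMG4 had 7.09 and 7.37, a difference of 0.27, and its partner PSMG3 had 6.38 and 6.45, a difference of 0.07. PSMG2, which helps to build the alpha ring, differed by 0.08.

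A few other members are not subunits of the ordinary proteasome. PSMC3IP, whose product works in meiotic recombination and carries the prefix by name only, had 5.87 in control retina and 5.52 in RVO retina, a difference of -0.35 and the lowest of the 45. PSMB11, the beta subunit of the thymus proteasome, had 6.56 and 6.33, a difference of -0.23. That gene is known for expression in the thymic cortex, and whether a signal of this size comes from its transcript was not tested. PSMA8, the alpha subunit of the testis, lay under the limit at 3.08 and 2.75. PSMC3IP and PSMB11 were 2 of the 11 genes below 0 among the 45 past the limit, and the others were constitutive subunits of the core or of the 19S particle.

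Genes whose products work with the proteasome lay around 0. Of 25 listed partners and regulators 19 were measured, and none passed 2-fold or 1.5-fold. Over all genes 7.25% were higher and 3.03% lower by over 1.5-fold. In the list 7 genes, or 36.8%, lay above 0, with a median of -0.05. These values were near those of all genes, 42.8% and -0.04. NFE2L2, a transcription factor of the oxidative stress response that can raise proteasome genes, led with 9.87 in control retina and 10.29 in RVO retina, a difference of 0.43. NFE2L1, the factor that restores proteasome genes when the proteasome is inhibited, had 7.70 and 7.81, a difference of 0.11. POMP, the maturation factor of the core, had 9.01 and 9.10, a difference of 0.09. VCP, the ATPase that extracts ubiquitinated proteins, differed by 0.27, and UBXN4, one of its adaptors, by 0.31. UCHL5, a deubiquitinase of the 19S particle, was the lowest of the list, with 9.69 and 9.36, a difference of -0.33. The other proteasome deubiquitinase USP14 differed by -0.13. UBE3C, a ubiquitin ligase of the particle, differed by -0.23.

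Of 17 listed genes of ubiquitin, ubiquitin-like proteins and their E1 and E2 enzymes, 14 were measured, with a median of 0.02. UBE2L6, the E2 enzyme for ISG15, was the only one higher by over 2-fold, with 6.27 and 7.87, and none was lower by as much. Over all genes 3.50% were higher and 0.479% lower by over 2-fold. ISG15, the interferon-induced ubiquitin-like protein, had 6.68 and 7.23, a difference of 0.55, and UBA7, its E1 enzyme, differed by 0.22. UBA1, the main E1 enzyme of ubiquitin, had 10.23 and 10.26, a difference of 0.03. The lowest were the E2 genes UBE2K at -0.29 and UBE2R2 at -0.28. The ubiquitin genes UBB and RPS27A had almost the same values, 10.85 in control retina and 11.08 in RVO retina for each. Both transcripts encode ubiquitin, and whether their probe sets cross-hybridize was not tested.

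The immunoproteasome feeds class I presentation, and that list held 2 genes with larger differences than any proteasome gene. Of 18 listed genes 10 were measured, with a median of 0.20. Of these 1 was higher by over 2-fold and 2 by over 1.5-fold, beside 3.50% and 7.25% of all genes. B2M, the light chain of class I molecules, was the gene past 2-fold, with 8.45 in control retina and 10.37 in RVO retina. TAP1, a chain of the pump that carries proteasome peptides into the endoplasmic reticulum, had 5.44 and 6.28, a difference of 0.84. Of the rest, the peptide editor TAPBPL differed by 0.30, the chaperone PDIA3 by 0.28 and the peptide trimmer ERAP1 by 0.22. The class I transactivator NLRC5 had 5.85 and 5.59, a difference of -0.26. The difference of TAP1 was therefore above that of PSMB9, and those of the editing, chaperone and trimming genes lay in the range of the proteasome genes.

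All 9 measured genes of the interferon-gamma pathway, of 18 listed, lay above 0, beside 42.8% of all genes, with a median of 0.28. IRF9, a DNA-binding factor of interferon signaling, was the only one higher by over 2-fold, with 7.66 and 8.88, beside 3.50% of all genes. The receptor chains IFNGR1 and IFNGR2 had 7.32 and 7.41 in control retina and 8.16 and 8.23 in RVO retina, differences of 0.84 and 0.82. IRF1, a transcription factor that switches on immunoproteasome genes, had 6.37 and 6.77, a difference of 0.40, and IRF8 differed by 0.28. IFNG itself lay far under the limit, at 2.26 and 2.52. TAP2 was not analysed here because no probe set carried its symbol alone.

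Leukocytes carry immunoproteasomes, and their markers were higher in the RVO array. Of 18 listed markers 16 were measured, 12 passed 2-fold upwards and 0 downwards, beside 3.50% and 0.479% of all genes. The median of the markers was 1.58, or 1.81 with a signal limit of 6, which removes SPI1 only. Their log2 signals ran from 4.60 to 7.67 in the control array and from 5.92 to 9.47 in the RVO array, and none was at 0. On the linear scale their summed signal was 1265 in control retina and 4395 in RVO retina, a ratio of 3.47. The largest difference was that of CD53, a membrane protein of leukocytes, at 2.87, followed by the protease CTSS at 2.80, LAPTM5 at 2.47, MPEG1 at 2.29 and CD68 at 2.27. The smallest were SPI1, a myeloid transcription factor, at 0.46 and CD74, the class II invariant chain, at 0.51. PSMB9 at 0.57 lay near this lower end, and PSME1, PSME2 and PSMB10 had smaller differences than every leukocyte marker measured. The part of leukocytes in the PSMB8, PSMB9 and PSME1 differences was not tested.

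Neuronal genes ran the other way, and lymphocyte genes past the limit lay below 0 at low signals. Of 8 lymphocyte markers read, out of 12 listed, 4 passed the limit and all 4 lay below 0, with a median of -0.32. Of all genes 56.0% lay below 0. Genes with a mean log2 signal of 5 to 6 had a lower quartile of -0.246. CD5 and NKG7, at -0.241 and -0.215, lay above that quartile, and CD79B at -0.407 lay below it. These low signals limit what the lymphocyte differences can show. CD3E had 5.16 and 4.52, and the summed linear signal of the 8 markers was 259 in control retina and 204 in RVO retina. All 13 measured retinal neuron markers, of 20 listed, lay below 0 too in the deposited values, with a median of -0.43, although RCVRN turned to just above 0 when quantile normalization was repeated, and 3 were lower by over 2-fold. The summed linear signal of the 13 was 32878 in control retina and 26047 in RVO retina, a ratio of 0.79. The 3 genes past 2-fold were the ganglion cell genes NRN1, SLC17A6 and POU4F1, beside 0.479% of all genes lower by that much. Next in size were the photoreceptor genes GNAT2 at -0.79 and PDE6A at -0.52. POU4F1 lay at the 2-fold limit and came within it, between -0.99 and -0.91, under median centring, repeated quantile normalization and removal of the trend with signal. The constitutive proteasome genes had a median of 0.12 in the same arrays, and the part of the cell mixture in that value was not tested.

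**Figure D3:**
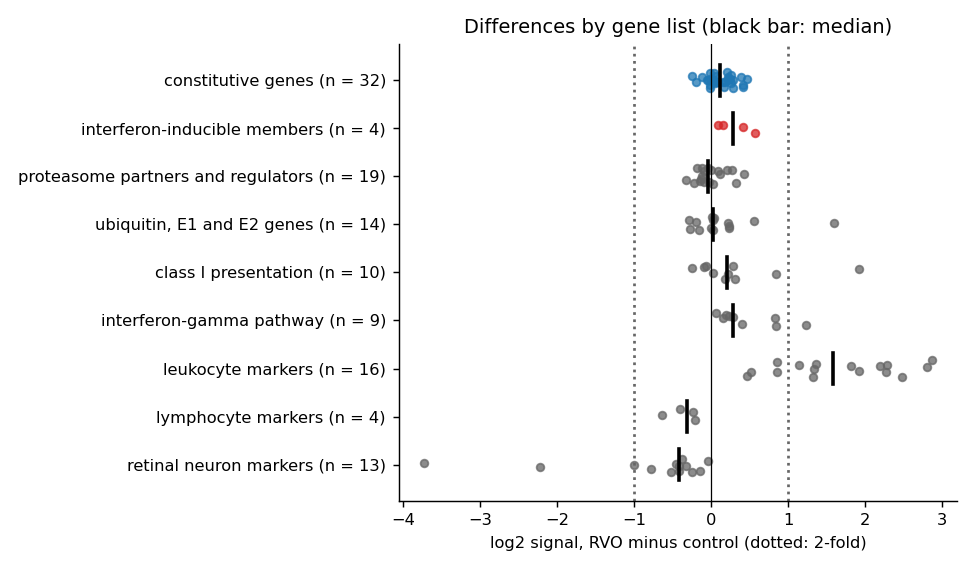
Differences in log2 signal (RVO minus control) of the genes past the signal limit in each list, 1 point per gene, with the median as a black bar and 2-fold as dotted lines. The 32 constitutive genes and the 4 inducible genes past the limit lie inside 2-fold, at medians of 0.12 and 0.28, between retinal neuron markers at -0.43 and leukocyte markers at 1.58.

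Gene order offers a view that the choice of members did not use. In the RefSeq gene table PSMB9 and PSMB8 lie in the class II region of the MHC with TAP1 between them, so each inducible beta subunit there neighbours a peptide transporter gene. The difference of TAP1 was 0.84, against 0.57 and 0.58 for its neighbours. On the far side of PSMB9 lay RLA-DMB and RLA-DMA, which load peptides on class II molecules. RLA-DMB had 5.71 in control retina and 7.91 in RVO retina, a difference of 2.20, and RLA-DMA had 5.38 and 6.54, a difference of 1.16. Next to these BRD2, a chromatin reader, had 10.18 and 10.20. Beyond PSMB8, TAP2 and LOC100351416 were not read here, and LOC100351163 differed by 1.26. Within this block the inducible beta subunits thus had smaller differences than TAP1 and both DM genes and larger ones than BRD2.

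PSME2 and PSME1 lie close together elsewhere, with EMC9 between them, and next to RNF31 and IRF9. EMC9 and RNF31 differed by 0.08 and 0.11, and IRF9 by 1.23, with REC8 beyond it at -0.25. FITM1, a lipid droplet gene of muscle on the other side of PSME1, had 5.69 and 6.35, a difference of 0.66, and DCAF11 and PCK2 after it differed by 0.06 and -0.12. Muscle markers were higher in the same array, and their part in the FITM1 difference was not tested. PSMB10 lies apart from both blocks. LCAT beside it differed by -0.13 and PSKH1, beyond CTRL which was not read here, by 0.23, while SLC12A4 beyond LCAT had 6.05 and 7.30, a difference of 1.25. The outermost genes read at that locus, NRN1L and DPEP3, differed by -0.21 and -0.24. PSMB5 lies beside PSMB11, and these neighbours differed by 0.17 and -0.23.

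**Figure D4:**
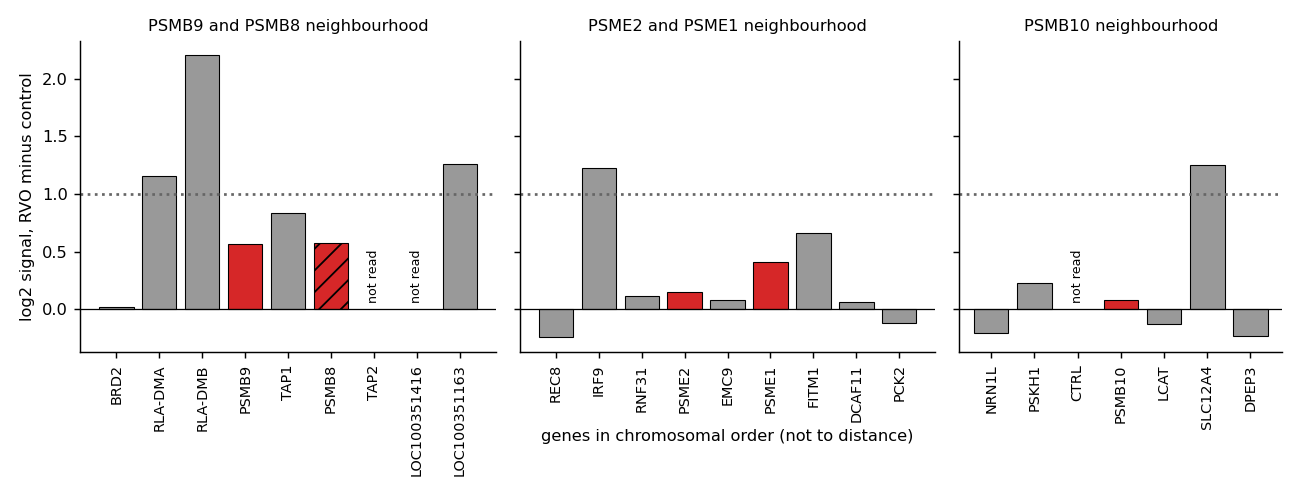
Difference in log2 signal (RVO minus control) of the inducible genes (red) and of up to 3 protein-coding genes on each side (grey), in chromosomal order and not to distance, with 2-fold as a dotted line. The hatched bar is PSMB8, under 5 in both arrays. PSMB9 and PSMB8 lie at 0.57 and 0.58 among TAP1 and the DM genes, which reach 2.20, while PSMB10 stands at 0.08.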

How the data were processed

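Retinal RNA of the control and RVO conditions was measured on 1 Rabbit Gene ST array each. The authors deposited log2 signals after RMA in R, a procedure that corrects the background, equalizes the distributions of the arrays and summarizes each probe set. Which annotation that step used was not given in the sources used here. All 26193 probe sets were read, and median log2 signals were 6.25 and 6.23 in the control and RVO arrays. Gene names were taken from the annotation of the platform, where 15816 probe sets carry 1 symbol, 376 several and 10001 none. For a gene with more than 1 probe set the brightest by mean signal was used. All 48 proteasome genes matched the RefSeq table of mOryCun1.1 by gene identifier, which was used for names and gene order only. Probe set PSMA5/SORT1 carries both symbols and was left out. Genes were kept when either array reached 5. Differences, medians and counts were computed with Python 3.11.15 and pandas 2.3.3. The steps were tested on simulated data with planted differences beyond 2-fold in genes of higher signal. That simulation does not bear on differences as small as those of the proteasome genes. No test could be made with 1 array per condition, and the number of arrays limits the precision. The text names the inducible genes, their counterparts, the highest and lowest gene of each role, and up to 5 genes of each companion list by size, along with a few fixed by name. Other genes named beyond these were chosen after their values were seen. Chromosomal neighbours were taken by position, up to 3 protein-coding genes on each side, in a look added after values were seen. Members and lists were chosen with earlier results of these data known. Alternatives were no signal filter, a filter at 6, median centring, repeated quantile normalization, removal of the trend with signal by lowess (statsmodels 0.14.6), the mean of all probe sets and, added after seeing the data, leaving out PSMD5 and PSMD9.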

Additional observations from a re-analysis of the deposited data

How the results depend on the processing

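Of 1117 values recomputed under the alternatives, 1112 moved by less than 0.19 on the log2 scale, or by less than 1.5 times for counts. None turned sign while beyond 2-fold. Many of these values could not move, so that count is no measure of robustness. A signal filter leaves the difference of a single gene unchanged. No proteasome gene had several probe sets, so averaging them changed no member. Median centring shifts every difference by the same amount. The count of proteasome genes higher by over 1.5-fold went from 0 to 1 when quantile normalization was repeated and to 1 when the trend with signal was removed, and the gene was PSMB9 in both. The median of the inducible beta subunits, 0.32 over PSMB9 and PSMB10, was 0.57 with no signal filter, which adds PSMB8, and 0.081 with a filter at 6, which leaves only PSMB10. The gap between the inducible and constitutive medians, 0.16, is itself under 0.19, and it ranged from 0.07 with a filter at 6 to 0.34 with no filter. It was 0.21 without the chaperones PSMD5 and PSMD9, an alternative chosen after seeing the data, under which the 19S median went from 0.05 to 0.03. The median of leukocyte markers was 1.81 with a filter at 6, which removes SPI1, the marker with the smallest difference. No lymphocyte marker passed a filter at 6, so that setting gave no median for them. Across all settings PSMB9 ranged from 0.57 to 0.66, PSMB8 from 0.58 to 0.67 and PSMB10 from 0.08 to 0.16. The median of all genes moved from -0.04 to 0.01 with the trend removed, and that of the proteasome genes from 0.08 to 0.15, while genes above 0 went from 42.8% to 51.6% of all genes and from 34 to 37 of the 45. No paired analysis was possible because each condition has 1 array. The low signals of PSMB8, PSMB9 and PSMA2 limit what their differences can show.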

Other observations

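The probe set that carries the symbols of both PSMA5 and SORT1, a sorting receptor gene, had log2 signals of 9.75 in control retina and 9.61 in RVO retina. Its difference of -0.15 stood beside -0.12 for the probe set named PSMA5 alone. UBD, the ubiquitin-like gene FAT10 that interferon induces, had 3.58 in both arrays, under the signal limit.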
